A study of Mus musculus with 58 samples.

Results

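This comparison set the retinas of diabetic mice taken in the middle of the night, at ZT17, against those taken in the middle of the day, at ZT5. ZT counts the hours after lights on, and lights went off at ZT12. The libraries were chosen by the genotype and time point in their titles. There were 4 at ZT17 (replicates 1, 3, 4 and 5) and 5 at ZT5 (replicates 1, 2, 3, 4 and 5), 9 of the 58 libraries of the series. The diabetic mice were males heterozygous for Ins2Akita on C57BL/6 (C57BL/6-Ins2Akita/J), in which misfolded insulin damages the pancreatic beta cells and leaves the mice hyperglycemic. Wild-type male littermates served as controls, with 5 libraries at ZT17 and 6 at ZT5, and they appear here only beside the diabetic values. All mice of these groups were 4 months old, lived under 12 h of light and 12 h of dark, fed freely and were perfused with cold phosphate-buffered saline before the retinas were dissected. Each library held ribosome-depleted total RNA of an individual retina, and the sources do not say whether any retinas came from the same mouse. Ins2 itself did not pass the filter on low counts, and the Akita change is a point change, so the counts do not check the genotype labels.

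At ZT17 the eyes were removed and dissected under dim red light, and the samples of each time point were handled together in a session of about an hour. The hour of the day, the lighting and the collection session therefore cannot be told apart in any value below. Total counts ran from 8588878 to 18287074 at ZT5 and from 18193309 to 20301393 at ZT17. ZT17 replicate 3 stood apart. It scored 52.1 on the first principal component of the 9 libraries, which held 29.5% of their variance, and the other 8 scored between -24.8 and 13.7. Its log2 deviation from the mean of the 9 rose with the GC content of the gene, with a Spearman's rho of 0.77 across 7846 genes, and in the other 8 this rho lay between -0.62 and 0.48. For named genes, calls that were lost without this library are marked. List counts and medians without it are given only where stated.

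The retina keeps time with its own clock. ARNTL and CLOCK switch on the Per and Cry genes, whose products then block them, and the nuclear receptors of the Nr1d and Ror families close a second loop. Its photoreceptors are most active metabolically in the dark, when the ion channels of the outer segment stand open, and they run a high rate of glycolysis even with oxygen at hand. Dopamine and melatonin act as opposite day and night signals, and the cyclic AMP pathway joins them to the clock.

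Night and day differed for a limited share of the transcriptome, in about equal numbers each way. Of 19120 genes tested, 1407 passed an adjusted p of 0.05 (edgeR quasi-likelihood test, Benjamini-Hochberg). At ZT17, 694 were higher, or 3.63% of the genes tested, and 713 were lower, or 3.73%. The changes were mostly small, with a median of 1.30-fold among the higher and 1.32-fold among the lower genes, and 76 higher and 55 lower genes reached 2-fold. The median log2 change of all genes tested was -0.01. Without ZT17 replicate 3 the counts were 449 higher and 444 lower, and without ZT17 replicate 5 they were 457 and 425. With the spread taken from the 9 libraries alone in place of all 58, they were 277 and 182. Of the higher genes 95.2% and of the lower genes 88.7% were protein coding, against 77.5% of all genes tested with an annotated type. In these bulk samples, fewer cells of a type and less RNA per cell cannot be told apart.

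**Figure D1:**
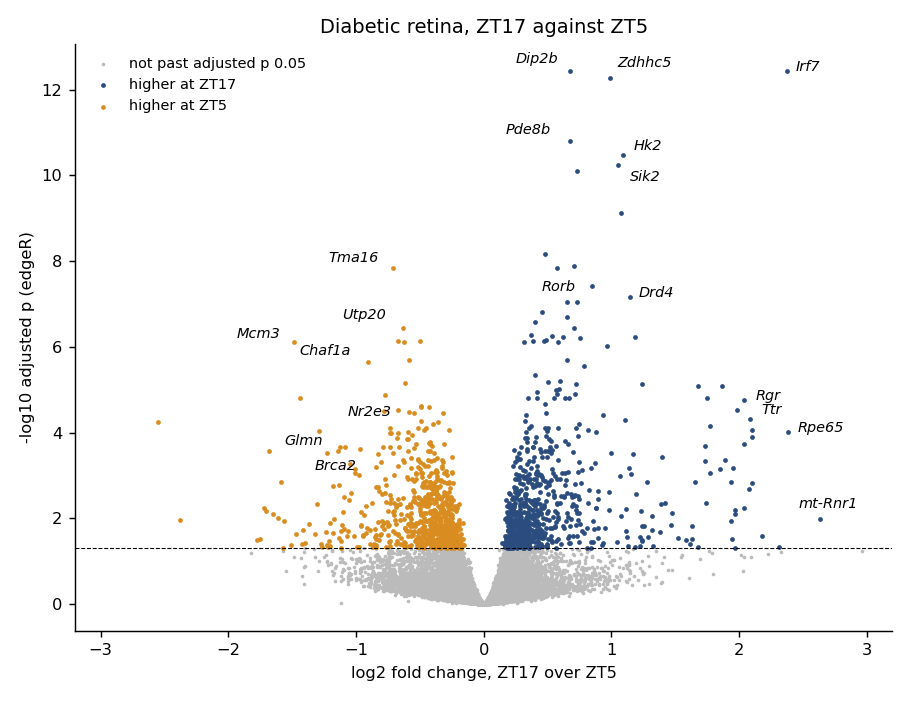
Log2 fold change, ZT17 over ZT5, against the -log10 adjusted p (edgeR) of each of the 19120 genes tested in diabetic retinas, with the dashed line at an adjusted p of 0.05. The 694 higher genes are blue, the 713 lower genes are orange, and 1 called gene, Mir6236 at 5.89, named after its value was seen, lies outside the horizontal axis.

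No gene passed the edgeR test of a difference between diabetic and control retinas in the night-day change. In control retinas the same test called 1419 genes higher (7.42%) and 1465 lower (7.66%) at ZT17, 2884 in all, which went to 1373, 1769 and 1840 without control ZT17 replicate 3, ZT17 replicate 1 and ZT5 replicate 1. The test of the difference between the genotypes called 0 of 19120 genes (0%) with edgeR, with a smallest adjusted p of 0.147 and 732 genes at an unadjusted p under 0.05. DESeq2 called 1 and limma-voom 4, and edgeR called 1 without diabetic ZT17 replicate 1 and 1 without control ZT17 replicate 5. The same direction held in control retinas for 97.9% of the 1407 genes called in diabetic retinas, and 0 genes were called in opposite directions. The genes higher in both numbered 464, which were 66.9% of the diabetic and 32.7% of the control calls, and those lower in both numbered 412, which were 57.8% and 28.1%. The comparisons shared no library but were fitted together, with 1 estimate of spread.

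**Figure D2:**
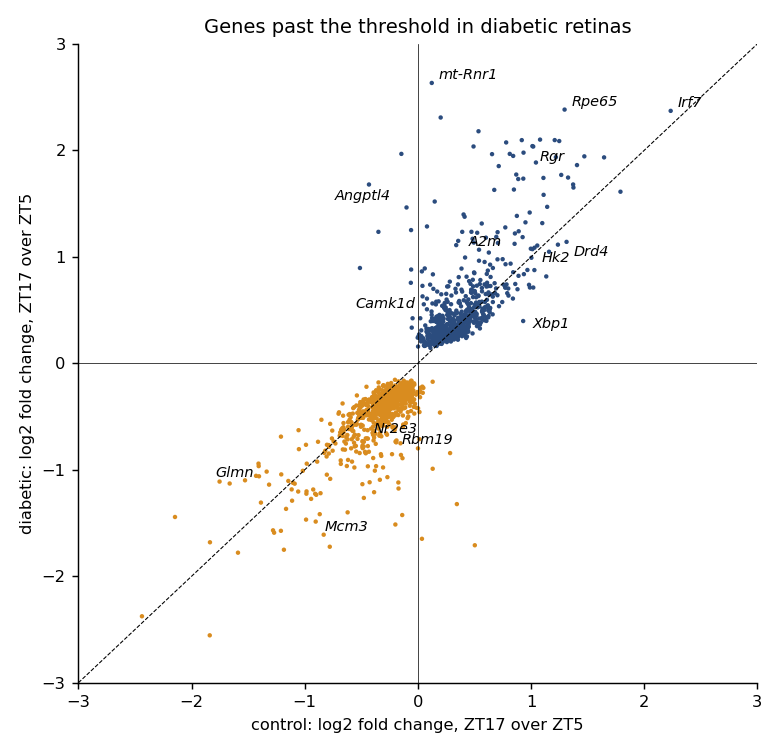
Log2 fold change, ZT17 over ZT5, in control retinas (horizontal) and diabetic retinas (vertical) for the 1407 genes called in diabetic retinas, blue where higher and orange where lower at ZT17, with the dashed line at equal change. The genes were chosen on the vertical axis, 97.9% share the sign of the control value, and 1 lies outside the axes.

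The genes with the smallest adjusted p among those higher at night were Irf7, Dip2b, Zdhhc5, Pde8b, Hk2, Sik2, Lpin2, Tuft1, Tbl1x and Lgmn. Irf7 (chromosome 7, 141262706 to 141266481), the transcription factor that drives the interferon response, measured 12.4, 11.03, 12.6, 11.9 and 9.11 CPM at ZT5 and 43.5, 66.5, 62.1 and 63.1 CPM at ZT17. Each night library held several times the level of every day library. The rise was 2.37 on the log2 scale (SE 0.19), which is 5.18-fold (edgeR adjusted p = 3.62e-13), beside 2.23 in control retinas. Zdhhc5 (chromosome 2, 84687970 to 84715180), which attaches palmitate to proteins, measured 195, 201, 194, 219 and 221 CPM at ZT5 and 361, 422, 419 and 437 CPM at ZT17, a rise of 1.99-fold (edgeR adjusted p = 5.37e-13). Sik2 (chromosome 9, 50892801 to 51009073), a salt-inducible kinase that answers to cyclic AMP, measured 116, 132, 125, 128 and 129.5 CPM at ZT5 and 215, 248, 294 and 287 CPM at ZT17, a rise of 2.07-fold (edgeR adjusted p = 5.61e-11). The day values of both genes were tight and lay below every night value. Dip2b rose 1.60-fold, Lpin2, a phosphatidate phosphatase of lipid synthesis, 1.65-fold, and Lgmn, the lysosomal protease legumain, 1.63-fold. Tuft1 rose 2.10-fold and Tbl1x, a part of nuclear corepressor complexes, 1.40-fold. The largest edgeR adjusted p among these 10 genes was 1.3e-08, and with any 1 of the 9 libraries left out each of them stayed called.

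Among the genes lower at night, the smallest adjusted p belonged to Tma16, Utp20, Urb1, Ddx31, Mcm3, Rbm19, Fam206a, Chaf1a, Ehd4 and Hkdc1. Tma16, which binds ribosomes being assembled, measured 16.6, 17.4, 20.5, 17.1 and 19.6 CPM at ZT5 and 12.4, 9.91, 12.1 and 10.02 CPM at ZT17, and the groups did not overlap. It fell by 0.71 on the log2 scale (SE 0.08, edgeR adjusted p = 1.42e-08). Utp20, a part of the particle that processes the small ribosomal subunit RNA, measured 46.8 to 55.8 CPM at ZT5 and 27.6 to 35.8 CPM at ZT17 and fell 1.55-fold (edgeR adjusted p = 3.59e-07). Rbm19, an RNA-binding protein of the nucleolus, fell 1.54-fold, Urb1, a nucleolar factor of the large subunit, 1.42-fold and Ddx31, a nucleolar RNA helicase, 1.59-fold. Fam206a fell 1.498-fold. Chaf1a, which loads histones on newly made DNA, measured 10.4, 9.27, 9.41, 11.2 and 10.05 CPM at ZT5 and 5.71, 6.25, 5.41 and 4.15 CPM at ZT17 and fell 1.87-fold (edgeR adjusted p = 2.31e-06). Every night library lay below every day library for Chaf1a, as it did for Ehd4, an endocytic protein that fell 1.54-fold, and for Hkdc1, a hexokinase relative that fell 1.71-fold. Among called genes with a mean of at least 5 CPM, the largest falls were those of Glmn at -1.14, Col19a1 at -1.06, Kif18a at -1.05, Chaf1a at -0.91 and Brca2 at -0.84 on the log2 scale. Glmn, glomulin, averaged 102 ± 18.4 CPM (SD, n = 5) at ZT5 and 46.4 ± 13.5 CPM (SD, n = 4) at ZT17, and the groups did not overlap. Overlapping genes on the other strand had 10% or more of the counts of Irf7, Zdhhc5, Chaf1a, Glmn and Kif18a, and the sources do not say whether the counting used strand. The same held for Aldoa, Car14, Dbp, Kif4, Nr1d1, Rfc5 and Sult1a1, described below, and for Per3, Pms2 and Rdh5 the overlapping gene lay on the same strand.

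**Figure D3:**
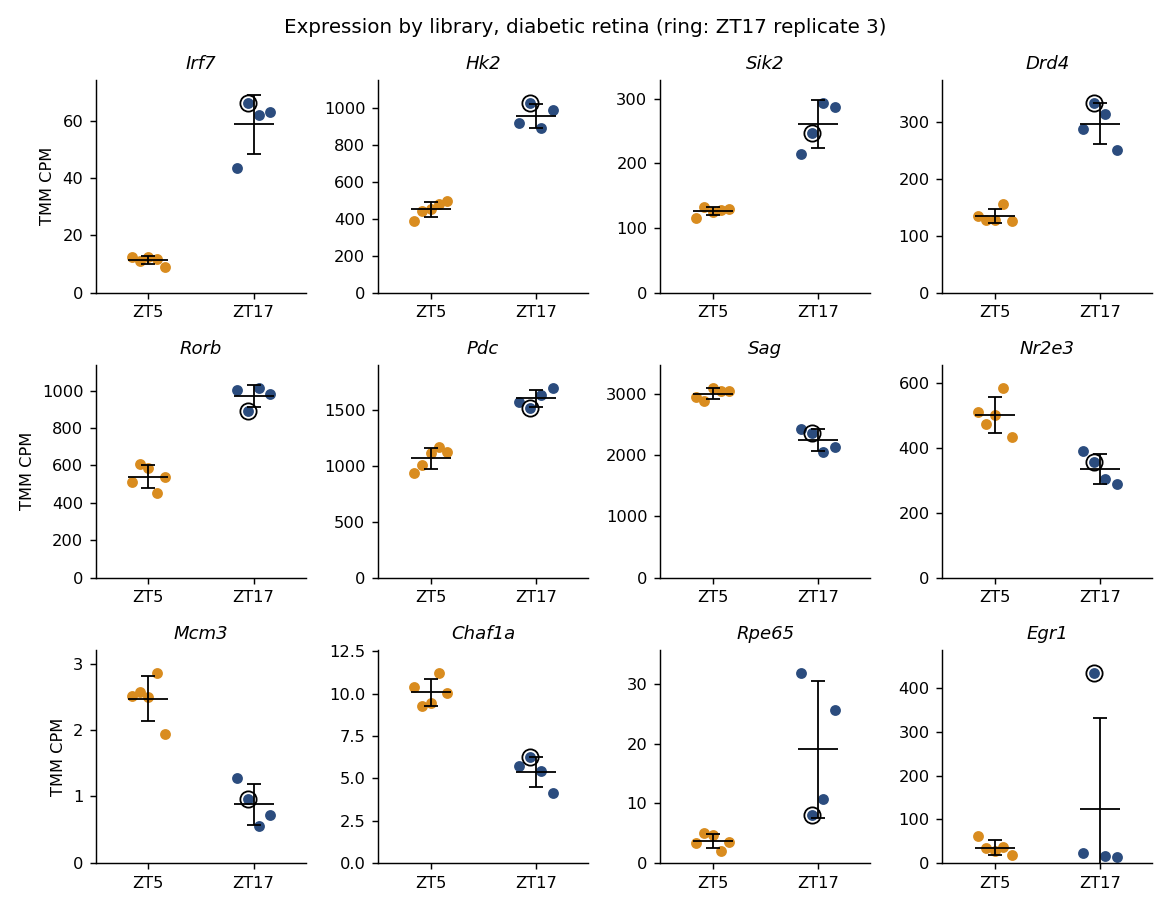
Expression of 12 genes in each of the 9 diabetic libraries, in CPM (TMM-scaled) on a vertical axis that starts at 0, with a dash and bars for the mean and SD of the 5 ZT5 (orange) and 4 ZT17 (blue) libraries and a ring around ZT17 replicate 3. The groups are apart for 11 of the genes, and for Egr1 replicate 3 alone stands high, at 436 CPM. The lower bar of Egr1 is cut at 0.

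Of the 15 core clock genes, 2 rose at night, 0 fell and 13 did not pass the test, against 5 and 0 in control retinas. With an offset in the fit for the GC content and length of each gene, called the GC and length offset below, 5 rose and 1 fell in diabetic retinas, Cry1 and Rora among the added rises and Dbp the fall. Without control ZT17 replicate 3, 3 rose in control retinas, and without control ZT17 replicate 2, 1 fell. Of all genes tested, 3.63% were higher and 3.73% lower in diabetic retinas, and 7.42% and 7.66% in control retinas, and the list counts here and below stand against these shares. Rorb, a nuclear receptor of the second loop that photoreceptors also need, measured 511, 609.7, 587, 454 and 539 CPM at ZT5 and 1003, 888, 1015 and 981 CPM at ZT17. The 4 night values were all far above the 5 day values, and the rise was 0.85 on the log2 scale (SE 0.10, edgeR adjusted p = 3.82e-08), beside 0.50 in control retinas. Per2, a repressor of the first loop, measured 38.99, 35.1, 39.7, 43.6 and 44.1 CPM at ZT5 and 61.2, 61.4, 58.2 and 44.8 CPM at ZT17, and night replicate 5 lay just above the highest day value. Its rise of 0.48 (SE 0.13, edgeR adjusted p = 0.0166) was lost without ZT17 replicate 3 or ZT5 replicate 2 (adjusted p up to 0.0721). Without ZT5 replicate 4, 4 of the 15 were called, Cry1 among them. Arntl measured 127, 129, 129, 139.6 and 145 CPM at ZT5 and 107, 120.2, 146 and 151 CPM at ZT17, and the groups overlapped fully. Its log2 change was -0.03 (SE 0.07), and those of Clock, Npas2, Per1, Per3, Cry2, Nr1d1, Nr1d2 and Dbp were -0.08, -0.01, 0.19, 0.03, 0.08, 0.14, -0.05 and -0.16, with SEs of 0.07 to 0.17. Cry1 at 0.25, Nfil3 at 0.24 and Rora at 0.20 did not pass either, with edgeR adjusted p of 0.0515, 0.245 and 0.136. The median log2 change of the 15 was 0.14, beside -0.01 over all genes tested and 0.20 in control retinas. In diabetic retinas it was 0.06 without ZT17 replicate 3 and 0.07 with the GC and length offset. None of 10 other clock outputs, kinases and F-box genes passed.

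Of the 6 clock-controlled genes of the retina, 3 rose at night, 2 fell and 1 did not pass the test. Drd4, the dopamine receptor of photoreceptors that lowers their cyclic AMP, measured 135, 127, 128, 155 and 126 CPM at ZT5 and 286, 334, 314 and 251 CPM at ZT17. No day library came near the lowest night library, and the rise was 2.21-fold (log2 1.14, SE 0.14, edgeR adjusted p = 7e-08). Plekhb1, a membrane protein of photoreceptors, measured 600.1, 573, 598, 724 and 584 CPM at ZT5 and 987, 1041, 981 and 1003 CPM at ZT17, a rise of 1.63-fold (edgeR adjusted p = 3.59e-07). Cys1, cystin, a protein of the cilium, rose 1.53-fold (edgeR adjusted p = 0.000891) and averaged 10.6 ± 0.882 CPM (SD, n = 5) at ZT5 and 16.2 ± 2.41 CPM (SD, n = 4) at ZT17. Nr2e3, the rod nuclear receptor that represses cone genes, went the other way, with 511, 473, 502, 585 and 433 CPM at ZT5 and 388, 356, 305 and 287 CPM at ZT17. All night values lay below all day values, and it fell by 0.58 on the log2 scale (SE 0.10, edgeR adjusted p = 3.37e-05). Adcy1, the adenylyl cyclase that the clock drives, fell 1.16-fold (edgeR adjusted p = 0.0264), but its ranges overlapped and the call was lost without ZT17 replicate 4 or 5 or ZT5 replicate 3 or 5 (adjusted p up to 0.138). Usp2, a ubiquitin protease, had a log2 change of 0.31 (SE 0.13) and did not pass, except without ZT5 replicate 4.

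Dopamine, cyclic AMP and melatonin genes held 4 higher and 1 lower of 17 tested, and 5 and 0 in control retinas. Both members of the Pde8 family, which break down cyclic AMP, rose. Pde8b measured 118, 134, 117, 131 and 137 CPM at ZT5 and 169, 199.7, 220.4 and 224 CPM at ZT17 and rose 1.60-fold (edgeR adjusted p = 1.56e-11), and Pde8a measured 80.1, 80.3, 71.4, 87.4 and 91.04 CPM at ZT5 and 104, 125, 140.0 and 137 CPM at ZT17 and rose 1.54-fold (edgeR adjusted p = 5.94e-07). The day and night ranges were apart for each. Drd2, the other D2-class receptor listed and the autoreceptor of dopamine cells, rose 1.45-fold (edgeR adjusted p = 0.000703) and averaged 29.2 ± 3.67 CPM (SD, n = 5) at ZT5 and 42.5 ± 7.40 CPM (SD, n = 4) at ZT17, with 1 day library, replicate 4, above the lowest night library. Drd4, described above, also belongs here. The remaining call was Adcy1, which the 9 libraries alone did not give. The dopamine transporter Slc6a3 and the melatonin enzymes Aanat and Asmt did not pass the filter on low counts.

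In the rod cascade, 3 of 23 genes rose, 2 fell and 18 did not pass. Pdc, phosducin, which holds the beta-gamma subunits of transducin, measured 936, 1006, 1115, 1168 and 1121 CPM at ZT5 and 1573, 1517, 1631 and 1700.3 CPM at ZT17, and the groups did not overlap. It rose 1.501-fold (log2 0.59, SE 0.09, edgeR adjusted p = 9.59e-06). Sag, the rod arrestin that ends rhodopsin's signal and moves to the outer segment in light, measured 2939.7, 2885, 3096, 3045 and 3036 CPM at ZT5 and 2421, 2356, 2049.7 and 2129 CPM at ZT17 and fell 1.34-fold (edgeR adjusted p = 0.000265). Here too each night library was below each day library. Gnb5, a partner of the RGS9 complex that shuts off transducin, rose 1.19-fold (edgeR adjusted p = 0.00123). Rcvrn, recoverin, the calcium sensor that restrains rhodopsin kinase, rose 1.28-fold (edgeR adjusted p = 0.03), and this call was lost without ZT17 replicate 3 or 5 or ZT5 replicate 2, 3 or 5 (adjusted p up to 0.155). Guca1b, the calcium-sensing activator of guanylyl cyclase, fell 1.22-fold (edgeR adjusted p = 0.0196) and was lost without ZT17 replicate 4 or 5 or ZT5 replicate 1 or 3 (adjusted p up to 0.115). The median over the 23 was 0.02, and with the 9 libraries alone 1 of them was lower.

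Of 11 genes of the cone cascade, 1 fell and 0 rose, and 1 rose without ZT17 replicate 1 or ZT5 replicate 4 or with the GC and length offset. It was Arr3, the cone arrestin, with 185, 199.6, 207, 178 and 266 CPM at ZT5 and 143, 144, 151 and 173 CPM at ZT17, a fall of 1.36-fold (edgeR adjusted p = 0.00376). The highest night value lay below the lowest day value. Photoreceptor transcription factors held 2 higher and 1 lower of 13. Esrrb, an orphan nuclear receptor of rods that supports their energy genes, measured 398, 450.0, 443, 396 and 416 CPM at ZT5 and 669, 816, 645 and 704 CPM at ZT17 and rose 1.69-fold (edgeR adjusted p = 6.36e-07), with all night values far above the day values. Crx, the homeobox factor of rods and cones, rose 1.18-fold (edgeR adjusted p = 0.0281), with day replicate 4 inside the night range and the other 4 day libraries below it, and was lost with any library but ZT17 replicate 1 and ZT5 replicate 4 left out (adjusted p up to 0.0785). Without ZT5 replicate 4, 6 of the 13 were called higher, and with the GC and length offset 2 were lower. With the 9 libraries alone 1 was higher. The lower gene was Nr2e3, given above. Outer segment and cilium genes held 3 lower and 0 higher of 19. They were Ift88, a carrier of intraflagellar transport, down 1.33-fold (edgeR adjusted p = 0.00271), Fscn2, the actin bundler of the outer segment, down 1.251-fold (edgeR adjusted p = 0.026), and Bbs1, a subunit of the BBSome, down 1.16-fold (edgeR adjusted p = 0.017). Bbs1 was lost without ZT17 replicate 5 (adjusted p = 0.131), and Fscn2 was lost without ZT17 replicate 1, 4 or 5 or ZT5 replicate 4 (adjusted p up to 0.1). With the 9 libraries alone none of the 3 passed. At the ribbon synapse 1 of 19 rose, Ctbp2, whose product RIBEYE forms the ribbon, at 1.17-fold (edgeR adjusted p = 0.0253), and it was lost without ZT17 replicate 3 or ZT5 replicate 1 or 2 (adjusted p up to 0.187). Another 2 were called without ZT5 replicate 4, and the count was 2 without ZT17 replicate 1 or 4 or with the GC and length offset and 0 with the 9 libraries alone.

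Of 25 glycolysis genes, 12 rose at night, 0 fell and 13 did not pass the test. The median log2 change was 0.27, and 23 of the 25 were above 0. Hk2 (chromosome 6, 82725025 to 82774454), the hexokinase of photoreceptors that commits glucose to glycolysis, measured 387, 441, 453, 479 and 498 CPM at ZT5 and 922, 1031, 891 and 989.7 CPM at ZT17. The gap between the groups was wider than the range within either, and the rise was 2.12-fold (log2 1.09, SE 0.10, edgeR adjusted p = 3.42e-11), beside 1.03 in control retinas. Slc16a3 (chromosome 11, 120948480 to 120960868), a lactate exporter, measured 30.5, 33.4, 28.1, 45.7 and 36.2 CPM at ZT5 and 64.99, 75.02, 55.9 and 50.6 CPM at ZT17, a rise of 1.76-fold (edgeR adjusted p = 8.56e-05). Pfkl, a phosphofructokinase subunit, measured 292, 281, 271, 337 and 309.6 CPM at ZT5 and 460.0, 466, 389 and 378 CPM at ZT17, a rise of 1.42-fold (edgeR adjusted p = 7.92e-05). The night and day ranges of both genes were apart. Pgam1, phosphoglycerate mutase, rose 1.35-fold (edgeR adjusted p = 0.000247). The other 8 were the glucose transporter Slc2a1 at 0.48, Tpi1 at 0.46, Aldoa at 0.45, Pgk1 at 0.42, Gpi1 at 0.35, lactate dehydrogenase Ldha at 0.28, Pfkp at 0.26 and Eno2 at 0.25 on the log2 scale, with edgeR adjusted p from 0.00106 to 0.0279. Their ranges were apart for 6 of these 8, and overlapped for Gpi1 and Pfkp. These 8 lie outside the naming rule and were chosen after their values were seen, to complete the list. Without ZT17 replicate 3, 8 of the 25 were called, and Aldoa, Eno2, Gpi1 and Ldha were not. Eno2 was lost without ZT17 replicate 3 or ZT5 replicate 2, 3 or 5 (adjusted p up to 0.271), Gpi1 was lost without ZT17 replicate 3 or ZT5 replicate 1, 2 or 3 (adjusted p up to 0.16) and Ldha was lost without ZT17 replicate 1 or 3 (adjusted p up to 0.0722). Pfkp was lost without ZT17 replicate 4 or 5 or ZT5 replicate 4 (adjusted p up to 0.0885), and Pgk1 was lost without ZT17 replicate 1 (adjusted p = 0.0709). In control retinas 16 rose and 0 fell, with a median of 0.39.

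Sequence before the start of the leading glycolytic genes is shown because these genes rose together and because 7 of the 12 risen genes (58.3%) hold the letters ACGTG on either strand in the 250 bases before their RefSeq start, the core of the sites that hypoxia-inducible factors bind. Of the 12 glycolytic genes with an entry that were not called, 5 (41.7%) hold them. The letters are common, with 24.1% of the promoters of 11936 tested genes matched by symbol holding them, 25.3% of those of the 529 risen genes with an entry and 28.4% of those of the 538 fallen genes. They also lie inside CACGTG, the E-box that ARNTL and CLOCK bind, and where CACGTG occurs both are counted. The RefSeq promoters (GRCm38.p6) of Hk2 (chr6:82774455-82774704, minus strand), Slc16a3 (chr11:120948817-120949066, plus strand) and Pgam1 (chr19:41911621-41911870, plus strand), the 3 with the smallest p among those with a match, follow from 5′ to 3′ on the gene's strand, with each match in capitals. The start is that of RefSeq. For Slc16a3 it lies inside the gene as Gencode annotates it, so that the whole window does too, and the last bases of the window are in an exon of another transcript.
Hk2: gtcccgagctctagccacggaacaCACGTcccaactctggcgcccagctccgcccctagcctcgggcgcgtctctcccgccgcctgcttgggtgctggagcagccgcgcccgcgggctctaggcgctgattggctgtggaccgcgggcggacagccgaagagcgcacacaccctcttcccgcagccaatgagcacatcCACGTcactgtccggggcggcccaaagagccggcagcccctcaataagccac
Slc16a3: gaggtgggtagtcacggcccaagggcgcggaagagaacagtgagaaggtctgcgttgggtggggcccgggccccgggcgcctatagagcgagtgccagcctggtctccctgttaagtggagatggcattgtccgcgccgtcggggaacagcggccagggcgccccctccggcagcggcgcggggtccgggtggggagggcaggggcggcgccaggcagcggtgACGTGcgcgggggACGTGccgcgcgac
Pgam1: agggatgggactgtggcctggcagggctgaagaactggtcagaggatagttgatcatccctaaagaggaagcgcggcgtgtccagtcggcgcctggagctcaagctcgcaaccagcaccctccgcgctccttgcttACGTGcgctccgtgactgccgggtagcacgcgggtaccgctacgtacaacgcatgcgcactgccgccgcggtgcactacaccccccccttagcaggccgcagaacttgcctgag
Hk2 and Slc16a3 each hold 2 matches and Pgam1 holds 1. Binding was not measured, and a match is only a run of letters.

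Among 21 tested hypoxia factors and targets 5 rose, 1 fell and 15 did not pass, with a median of 0.13. Without ZT17 replicate 3 the median was 0.09. P4ha1, which hydroxylates collagen prolines, measured 76.1, 72.6, 71.3, 67.2 and 80.4 CPM at ZT5 and 95.8, 107, 109 and 106 CPM at ZT17 and rose 1.42-fold (edgeR adjusted p = 0.000143). Mxi1, a MYC antagonist, rose 1.45-fold (edgeR adjusted p = 0.00026), and Egln1, the oxygen sensor that marks HIF for destruction, 1.41-fold (edgeR adjusted p = 0.000363). Ak4, a mitochondrial adenylate kinase, measured 24.9, 27.9, 22.6, 29.9 and 27.02 CPM at ZT5 and 55.6, 40.5, 41.02 and 37.02 CPM at ZT17 and rose 1.64-fold (edgeR adjusted p = 0.00156). Each of these 4 had night values above all day values. Epas1, HIF-2 alpha, rose 1.27-fold (edgeR adjusted p = 0.0116) and was lost without ZT17 replicate 3 (adjusted p = 0.106), and it was named after its value was seen. Hif1an, the asparaginyl hydroxylase that curbs HIF, fell 1.19-fold (edgeR adjusted p = 0.00994). With the 9 libraries alone neither Epas1 nor Hif1an was called. In control retinas 7 rose and 0 fell.

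Of 76 nuclear genes of the respiratory chain 1 rose, Uqcrh of complex III, at 1.20-fold (edgeR adjusted p = 0.0387), and 75 did not pass. Of the 76, 63 were above 0 and the median was 0.12, and without ZT17 replicate 3, 55 were above 0 and it was 0.05. The Uqcrh call was lost without ZT17 replicate 3 or 5 or ZT5 replicate 3, 4 or 5 (adjusted p up to 0.202). Without ZT17 replicate 4, 4 genes were called, and control retinas had 15 higher and 2 lower. With 1 control library left out the count of higher genes in control retinas ran from 2 to 18, and was 2 without control ZT17 replicate 3, 3 without ZT17 replicate 1 or ZT5 replicate 1, 6 without ZT5 replicate 2 and 8 without ZT5 replicate 3. None of 7 tested messages of the mitochondrial genome passed. Of the 13 listed, mt-Nd3, mt-Nd4l, mt-Co2, mt-Co3, mt-Atp6 and mt-Atp8 were not among the genes tested. In insulin signalling and glucose sensing 3 of 14 rose and 1 fell. These were Igf1r, the IGF-1 receptor, at 1.21-fold (edgeR adjusted p = 0.000954), Pik3r1, the regulatory subunit of PI3 kinase, at 1.18-fold (edgeR adjusted p = 0.00486), Irs1, a receptor substrate, at 1.16-fold (edgeR adjusted p = 0.0463), and Arrdc4, a brake on glucose uptake, down 1.31-fold (edgeR adjusted p = 0.0456). Irs1 was lost with any library but ZT17 replicate 1 and ZT5 replicate 4 left out (adjusted p up to 0.161), and Arrdc4 was lost with any library but ZT17 replicate 1, ZT17 replicate 4 and ZT5 replicate 4 left out (adjusted p up to 0.245). The count of higher genes was 5 without ZT17 replicate 1 and 5 without ZT5 replicate 4, and with the 9 libraries alone neither direction had a call. Cholesterol synthesis had 2 of 21 lower, Insig1, the sterol sensor's anchor, down 1.30-fold (edgeR adjusted p = 0.0148), and Lss, lanosterol synthase, down 1.16-fold (edgeR adjusted p = 0.0199), with a median of -0.21. This count was 5 without ZT17 replicate 1 or 3 and 6 without ZT5 replicate 4. It was 0 without ZT17 replicate 4 or 5 or ZT5 replicate 3 and 1 without ZT5 replicate 1. With the GC and length offset it was 5, and with the 9 libraries alone 0. Control retinas had 7 lower, and 4 without control ZT17 replicate 3.

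Of 29 DNA replication and repair genes, 9 fell at night, 0 rose and 20 did not pass the test. The median was -0.20, and 4 of the 29 were above 0. Mcm3 (chromosome 1, 20802968 to 20820312), a subunit of the helicase that opens origins, measured 2.51, 2.57, 2.49, 2.86 and 1.93 CPM at ZT5 and 1.28, 0.969, 0.562 and 0.727 CPM at ZT17. Every night library held less than every day library, at a level of few counts, and the fall was 2.80-fold (log2 -1.49, SE 0.20, edgeR adjusted p = 7.68e-07). Brca2, which acts in the repair of DNA breaks, measured 27.6, 29.2, 27.4, 22.8 and 23.3 CPM at ZT5 and 17.6, 9.75, 17.5 and 13.3 CPM at ZT17 and fell 1.79-fold (edgeR adjusted p = 0.000618). Pms2, of mismatch repair, fell 1.28-fold (edgeR adjusted p = 0.00298). The clamp loaders Rfc3 at -0.51 and Rfc5 at -0.41, the single-strand binder Rpa2 at -0.37 and Mcm4 at -0.36 also fell, and were named after their values were seen. Of these, Rfc3 was called with any 1 library left out. Rfc5 was lost without ZT17 replicate 5 or ZT5 replicate 5 (adjusted p up to 0.104), Rpa2 was lost without ZT17 replicate 3, 4 or 5 or ZT5 replicate 1 or 3 (adjusted p up to 0.119) and Mcm4 was lost with any library but ZT17 replicate 1, ZT5 replicate 4 and ZT5 replicate 5 left out (adjusted p up to 0.156). Without ZT17 replicate 5, 5 of the 29 were called. With the 9 libraries fitted alone, 2 of the 29 were, Mcm3 and Brca2, and Pms2, Rfc3, Rfc5, Rpa2 and Mcm4 were among those that did not pass. Control retinas had 11 lower and 0 higher, with a median of -0.26.

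The promoter of a leading fallen gene is shown for the E-box CACGTG, which stood in 13.6% of the 538 fallen genes with a promoter entry, in 9.07% of the 529 risen genes and in 9.45% of all 11936 tested genes with one. The median GC content of these windows was 58.4% for fallen, 61.6% for risen and 59.6% for all. Rbm19 and Chaf1a (chr17:56040166-56040415, plus strand) are the 2 with the smallest p among those of the 10 leading fallen genes whose 250 bases hold it. The window of Rbm19 runs into the first exon of a Gencode transcript and is not printed. That of Chaf1a is written from 5′ to 3′ with the match in capitals (RefSeq, GRCm38.p6).
Chaf1a: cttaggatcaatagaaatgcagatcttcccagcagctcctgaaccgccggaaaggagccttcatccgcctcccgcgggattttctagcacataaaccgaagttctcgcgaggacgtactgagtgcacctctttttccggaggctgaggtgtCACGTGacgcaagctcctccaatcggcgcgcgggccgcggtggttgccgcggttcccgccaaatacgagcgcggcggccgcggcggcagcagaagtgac
The match ends at the last base before the start in Rbm19 and begins 99 bases before it in Chaf1a. What binds there was not measured. Another 3 motifs were searched on both strands in the same windows. The D-box TTATGTAA stood in 1.70% of risen, 0.372% of fallen and 0.662% of all tested promoters, the ROR element TAGGTCA in 1.70%, 1.67% and 1.93%, and TAATCC, the core that CRX binds, in 7.56%, 7.62% and 6.55%.

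Markers of the pigment epithelium, the layer behind the photoreceptors that can cling to a dissected retina, were higher at night in 6 of 9 tested, with 0 lower and a median of 2.04. In control retinas 5 of the 9 were higher and 0 lower, with a median of 0.77, and 3 were higher without control ZT17 replicate 1 or 3. The difference between the genotypes had an unadjusted p under 0.05 for 3 of the 9 and passed the adjustment for 0. Rpe65, the isomerase of the visual cycle, measured 3.30, 5.01, 4.76, 2.08 and 3.49 CPM at ZT5 and 31.9, 8.08, 10.7 and 25.6 CPM at ZT17, a rise of 5.22-fold (log2 2.38, SE 0.42, edgeR adjusted p = 9.82e-05). Ttr, transthyretin, measured 8.58, 9.71, 10.4, 13.02 and 12.1 CPM at ZT5 and 57.6, 28.9, 31.3 and 66.3 CPM at ZT17 and rose 4.25-fold (edgeR adjusted p = 4.8e-05), and Rgr, the opsin of that layer, which Muller glia also hold, measured 9.43, 16.7, 14.6, 12.2 and 13.7 CPM at ZT5 and 69.4, 25.5, 42.6 and 81.5 CPM at ZT17 and rose 4.11-fold (edgeR adjusted p = 1.69e-05). All night values were above all day values, and night replicates 1 and 5 were the highest for each of the 3. Lrat, which esterifies vitamin A, rose 3.42-fold, Rdh5, a retinol dehydrogenase, 2.42-fold and Dct, a pigment enzyme, 4.96-fold, with edgeR adjusted p of 0.000873, 0.00145 and 0.0472, and Dct was lost with any library but ZT17 replicate 4 and ZT17 replicate 5 left out (adjusted p up to 0.193). Rdh5 was named after its value was seen. Summed over the 10 listed markers, the day libraries held 30.8 to 42.4 CPM and the night libraries 105.5 to 206.5 CPM. None of the 10 was at 0 in either group. The day sum of the diabetic retinas was the lowest mean of the 12 groups, 38.1 CPM, and the 6 control libraries at ZT5 held 51.9 to 166.7 CPM. Their part in the other results was not tested.

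In the angiogenesis list 3 of 17 rose and 0 fell (1 and 0 with the 9 libraries alone, 3 and 2 with the GC and length offset, and 1 lower without ZT17 replicate 1 or 3), and 1 of them, like the pigment epithelium sum, was highest in night replicates 1 and 5. Col8a2, a collagen of basement membranes, measured 2.97, 2.44, 3.86, 2.19 and 3.06 CPM at ZT5 and 13.3, 5.55, 6.23 and 12.7 CPM at ZT17 and rose 3.32-fold (edgeR adjusted p = 0.000467), with night replicates 1 and 5 far above replicates 3 and 4. Angptl4, a lipase inhibitor that hypoxia raises, measured 0.264, 0.439, 0.454, 0.673 and 0.437 CPM at ZT5 and 0.554, 1.24, 0.868 and 2.44 CPM at ZT17, a rise of 2.76-fold (edgeR adjusted p = 0.014) that was lost without ZT17 replicate 5 (adjusted p = 0.207). Night replicate 5 stood highest and replicate 1 within the day range. Flt1, a VEGF receptor, rose 1.21-fold (edgeR adjusted p = 0.00227) and averaged 129 ± 10.9 CPM (SD, n = 5) at ZT5 and 156 ± 11.3 CPM (SD, n = 4) at ZT17, and its highest night library was replicate 3.

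Of 20 tested immediate early genes, which respond to activity within minutes, 2 rose and 1 fell. Without ZT17 replicate 3 the counts were 0 and 0, and without ZT17 replicate 4 they were 5 and 0. They were 3 and 1 without ZT17 replicate 1 and 3 and 0 without ZT17 replicate 5. Nr4a1, a nuclear receptor, measured 45.9, 32.02, 29.5, 26.3 and 16.1 CPM at ZT5 and 44.9, 109, 51.5 and 54.3 CPM at ZT17, and only replicate 3 stood well above the day values. Its rise was 2.17-fold (edgeR adjusted p = 0.006) and was lost without ZT17 replicate 3 (adjusted p = 0.131). Ier2 measured 17.8, 12.5, 11.3, 17.00 and 11.8 CPM at ZT5 and 19.5, 42.4, 16.6 and 16.5 CPM at ZT17, a rise of 1.67-fold (edgeR adjusted p = 0.011) that was lost without ZT17 replicate 3 (adjusted p = 0.433), again with replicate 3 alone high. Egr1 measured 61.6, 35.2, 26.2, 36.4 and 17.04 CPM at ZT5 and 23.8, 436, 16.9 and 13.9 CPM at ZT17, and its log2 change of 1.79 (SE 0.62) did not pass (edgeR adjusted p = 0.0644) and was -0.96 without that library. It passed without ZT17 replicate 1, 4 or 5. Npas4, a factor of neuronal activity, had the opposite course, with 6.14, 4.26, 3.97, 3.82 and 5.12 CPM at ZT5 and 3.11, 3.07, 2.60 and 2.23 CPM at ZT17, a fall of 1.70-fold (edgeR adjusted p = 0.0455) that was lost with any library but ZT17 replicate 1 and ZT5 replicate 4 left out (adjusted p up to 0.149).

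Heat shock and cold-inducible genes held 2 higher and 1 lower of 16, and 4 higher with the GC and length offset. Control retinas had 7 higher and 1 lower, and the difference between the genotypes had an unadjusted p under 0.05 for 4 of the 16 and passed the adjustment for 0. Of all genes tested, 3.83% had such an unadjusted p. Hsp90aa1, the inducible form of the HSP90 chaperone, measured 739, 733, 751, 702 and 616 CPM at ZT5 and 964, 939.8, 939 and 1101 CPM at ZT17 and rose 1.39-fold (edgeR adjusted p = 7.85e-05), with all night values above the day values. Hsp90ab1 rose 1.24-fold (edgeR adjusted p = 0.0495) and was lost with any library but ZT17 replicate 1, ZT17 replicate 4 and ZT5 replicate 4 left out (adjusted p up to 0.262). Cirbp, an RNA-binding protein that cooling raises, measured 184, 171, 202, 197 and 193 CPM at ZT5 and 163, 159, 135 and 127 CPM at ZT17 and fell 1.30-fold (edgeR adjusted p = 0.00409). Glucocorticoid targets held 3 higher and 0 lower of 15, and all 15 were above 0, with a median of 0.32. Sult1a1, a sulfotransferase, measured 2.11, 1.504, 1.47, 1.96 and 2.06 CPM at ZT5 and 3.99, 3.88, 4.09 and 3.53 CPM at ZT17 and rose 2.10-fold (edgeR adjusted p = 0.001), Klf9, a zinc finger factor, rose 1.26-fold (edgeR adjusted p = 0.0096), and Fkbp5, a cochaperone of the receptor, 1.31-fold (edgeR adjusted p = 0.0142), which was lost without ZT17 replicate 5 or ZT5 replicate 5 (adjusted p up to 0.194). Without ZT5 replicate 4, 6 of the 15 were called, and with the 9 libraries alone 1.

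ER chaperones and unfolded protein response genes gave 1 call of 24 at night in the diabetic and 14 in the control genotype, all of them higher. The diabetic count was 3 without ZT17 replicate 4 and 2 without ZT17 replicate 1 or ZT5 replicate 4, and the control count ran from 11 to 14 with 1 control library left out. With the GC and length offset 1 gene of the list was lower in diabetic retinas. Xbp1, the spliced transcription factor of this response, measured 45.5, 45.6, 48.5, 47.98 and 49.9 CPM at ZT5 and 61.8, 69.96, 58.02 and 60.5 CPM at ZT17 and rose 1.32-fold in diabetic retinas (log2 0.40, edgeR adjusted p = 0.0051), beside 0.93 on the log2 scale in control retinas. Creld2, a resident of the ER, had the smallest p of all genes in the test of the difference between genotypes, 7.66e-06. It measured 14.4, 14.4, 14.6, 14.3 and 14.6 CPM at ZT5 and 13.7, 15.5, 14.05 and 11.99 CPM at ZT17, with a log2 change of -0.07 (SE 0.10), beside 0.60 in control retinas. The log2 change of Sdf2l1 was -0.05 beside 1.11 in control retinas, and that of Pdia6, a protein disulfide isomerase, -0.06 beside 0.38. The difference had an unadjusted p under 0.05 for 11 of the 24 genes, against 3.83% of all genes tested, and passed the adjustment for 0 of them. A difference between the genotypes for this list is therefore not shown by this test.

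Of the other 6 genes among the 10 with the smallest p in the test of the genotypes, Camk1d and Ebna1bp2 were called in diabetic retinas. Camk1d, a calcium-dependent kinase, measured 241, 252, 262, 277 and 264 CPM at ZT5 and 295.3, 386, 363 and 409.6 CPM at ZT17 and rose by 0.49 on the log2 scale (SE 0.07, edgeR adjusted p = 6.83e-07), beside 0.12 in control retinas, and the difference of 0.37 (SE 0.09) had an unadjusted p of 0.000137. Ebna1bp2, a nucleolar protein, changed by -0.17 (edgeR adjusted p = 0.0407) beside 0.13, and this call was lost with any library but ZT17 replicate 1 left out (adjusted p up to 0.194). Asrgl1, an asparaginase, at -0.05, Kif4, a mitotic kinesin, at -0.37, Zfat, a zinc finger protein, at -0.08, and Emp1, a membrane protein, at 2.33 were not called, beside -0.44, -1.42, 0.33 and -1.67 in control retinas. Emp1 was called without ZT17 replicate 1 or 3, and Kif4 without ZT17 replicate 1. None of these differences passed the adjustment.

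None of 79 cytosolic ribosomal protein genes passed, although 76 were above 0 with a median of 0.18. Without diabetic ZT17 replicate 3, 75 were above 0 with a median of 0.10. Control retinas had 23 higher, from 1 without control ZT17 replicate 3 to 35 without control ZT17 replicate 4. None of 18 ATF4 targets passed, and 1 did without ZT17 replicate 1 or 4 or ZT5 replicate 4 or with the GC and length offset. Splicing factors had 1 of 24 lower, Hnrnpdl, down 1.16-fold (edgeR adjusted p = 0.035), and nuclear long non-coding RNAs 1 of 10 lower, Snhg11, down 1.28-fold (edgeR adjusted p = 0.0352). In lysosome and autophagy genes 1 of 25 rose, Gabarapl1, which decorates autophagosomes, at 1.254-fold (edgeR adjusted p = 0.0276), and 1 fell, Atg5, which helps attach such proteins, down 1.32-fold (edgeR adjusted p = 0.0146). None of these 4 calls held without ZT17 replicate 3. Hnrnpdl was lost without ZT17 replicate 3 or 5 or ZT5 replicate 1, 3 or 5 (adjusted p up to 0.292), and Snhg11 was lost without ZT17 replicate 1, 3 or 5 or ZT5 replicate 2 or 5 (adjusted p up to 0.215). Without ZT5 replicate 4, 2 splicing factors and 2 of the non-coding RNAs were lower, and without ZT17 replicate 4, 2 splicing factors were. With the GC and length offset 2 splicing factors were higher and 1 lower, and the median of the list turned from -0.02 to 0.05. With the 9 libraries alone none of these 4 genes was called. Gabarapl1 was lost with any library but ZT17 replicate 1, ZT17 replicate 4 and ZT5 replicate 4 left out (adjusted p up to 0.097), and Atg5 was lost without ZT17 replicate 3 or ZT5 replicate 2 (adjusted p up to 0.0731). Without ZT17 replicate 4 the counts of higher genes were 3 for ribosomal proteins (1 without ZT17 replicate 1) and 4 for lysosome genes (2 without ZT17 replicate 1), the latter also without ZT5 replicate 4, and with the GC and length offset 5 lysosome genes were higher. The structural small RNAs and rRNA-like loci gave 0 calls of 9, with all 9 above 0 and a median of 0.50, and 1 was higher without ZT17 replicate 1. Without ZT17 replicate 3, 7 were above 0 with a median of 0.33. With the GC and length offset 8 were above 0 with a median of 0.27. Of the ribosomal RNAs of mitochondria, mt-Rnr1 was called, with 34.9, 40.2, 43.4, 24.4 and 28.5 CPM at ZT5 and 76.02, 121, 572 and 76.4 CPM at ZT17 (log2 2.63, edgeR adjusted p = 0.0104), and it was lost without ZT17 replicate 4 (adjusted p = 0.207).

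Rod markers were high in all 9 libraries, with summed levels of 35776 to 47966 CPM by day and 37194 to 44163 CPM by night. Rod markers gave 0 higher and 2 lower of 7 and cone markers 0 and 1 of 7, which were the Nr2e3, Sag and Arr3 given above. Without ZT17 replicate 1 or ZT5 replicate 4, or with the GC and length offset, 1 cone marker was higher. Bipolar markers held 2 higher of 9, and 4 without ZT5 replicate 5. Cabp5, a calcium-binding protein of bipolar cells, measured 65.1, 66.05, 63.3, 61.4 and 60.2 CPM at ZT5 and 86.1, 77.4, 83.2 and 90.97 CPM at ZT17 and rose 1.34-fold (edgeR adjusted p = 1.53e-05). The summed level of the bipolar markers ran from 1502 to 1727 CPM by day and from 1813 to 2003 CPM by night. Muller glia held 2 higher of 8, 4 without ZT17 replicate 4 and 1 without ZT17 replicate 3 or 5 or ZT5 replicate 1, 2, 3 or 5. Car14, a carbonic anhydrase, measured 42.2, 37.5, 44.2, 44.5 and 43.3 CPM at ZT5 and 67.6, 65.2, 55.9 and 64.3 CPM at ZT17 and rose 1.49-fold (edgeR adjusted p = 7.87e-05), and Kcnj10, a potassium channel, rose 1.22-fold (edgeR adjusted p = 0.0445) and was lost with any library but ZT17 replicate 1, ZT17 replicate 4 and ZT5 replicate 4 left out (adjusted p up to 0.268). Amacrine, ganglion and horizontal markers gave 0 calls of 9, 10 and 4. Without ZT5 replicate 4, and with the GC and length offset, 1 amacrine marker was higher.

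Genes of reactive glia held 2 higher of 16 and 0 lower, 3 higher with the 9 libraries alone and 4 with the GC and length offset. Stat3, the factor of cytokine signalling, measured 71.2, 67.4, 67.7, 69.2 and 70.01 CPM at ZT5 and 78.3, 94.4, 86.4 and 97.4 CPM at ZT17 and rose 1.29-fold (edgeR adjusted p = 7.19e-05). A2m, a protease inhibitor, measured 7.32, 4.64, 5.78, 6.12 and 7.74 CPM at ZT5 and 14.7, 15.6, 10.1 and 15.9 CPM at ZT17 and rose 2.22-fold (edgeR adjusted p = 0.00092), beside a log2 change of 0.36 in control retinas. Both had all night values above all day values and stayed called with any 1 library left out. Among microglial markers 1 of 7 rose, C1qc at 1.68-fold (edgeR adjusted p = 0.0361), and among those of endothelium and pericytes 2 of 9, Flt1 and Vwf, the latter at 1.34-fold (edgeR adjusted p = 0.0432), and C1qc was lost with any library but ZT17 replicate 4, ZT17 replicate 5 and ZT5 replicate 1 left out (adjusted p up to 0.254) and Vwf lost with any library but ZT17 replicate 1, ZT17 replicate 4 and ZT5 replicate 4 left out (adjusted p up to 0.387). Without ZT17 replicate 4, 2 microglial markers were higher. Without ZT17 replicate 1 or 3, 1 endothelial or pericyte marker was lower, and with the GC and length offset 1 was higher and 1 lower. With the 9 libraries alone neither list had a call. Lens markers summed to 1.89 to 5.61 CPM and blood markers to 0.0561 to 0.794 CPM over the 9 libraries, with the lens genes Mip and Lim2 at 0 in all of them. None of the 5 tested lens markers was called in diabetic retinas, with a median of -0.25. In control retinas 5 of 5 were higher at ZT17, with a median of 3.70. The count was 0 without control ZT17 replicate 5, 2 without control ZT5 replicate 1 and 3 without any other 1 of the control ZT5 libraries. The lens sum was 2247 CPM in that library, 25.1 CPM in control ZT17 replicate 4, 2.32 to 3.18 CPM in the other 3 and 1.76 to 11.2 CPM in the 6 control libraries at ZT5. The part of that library in the control values given above was not tested beyond the counts without it. The 2 tested cornea and ciliary body markers and the 3 of extraocular muscle gave 0 calls.

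**Figure D4:**
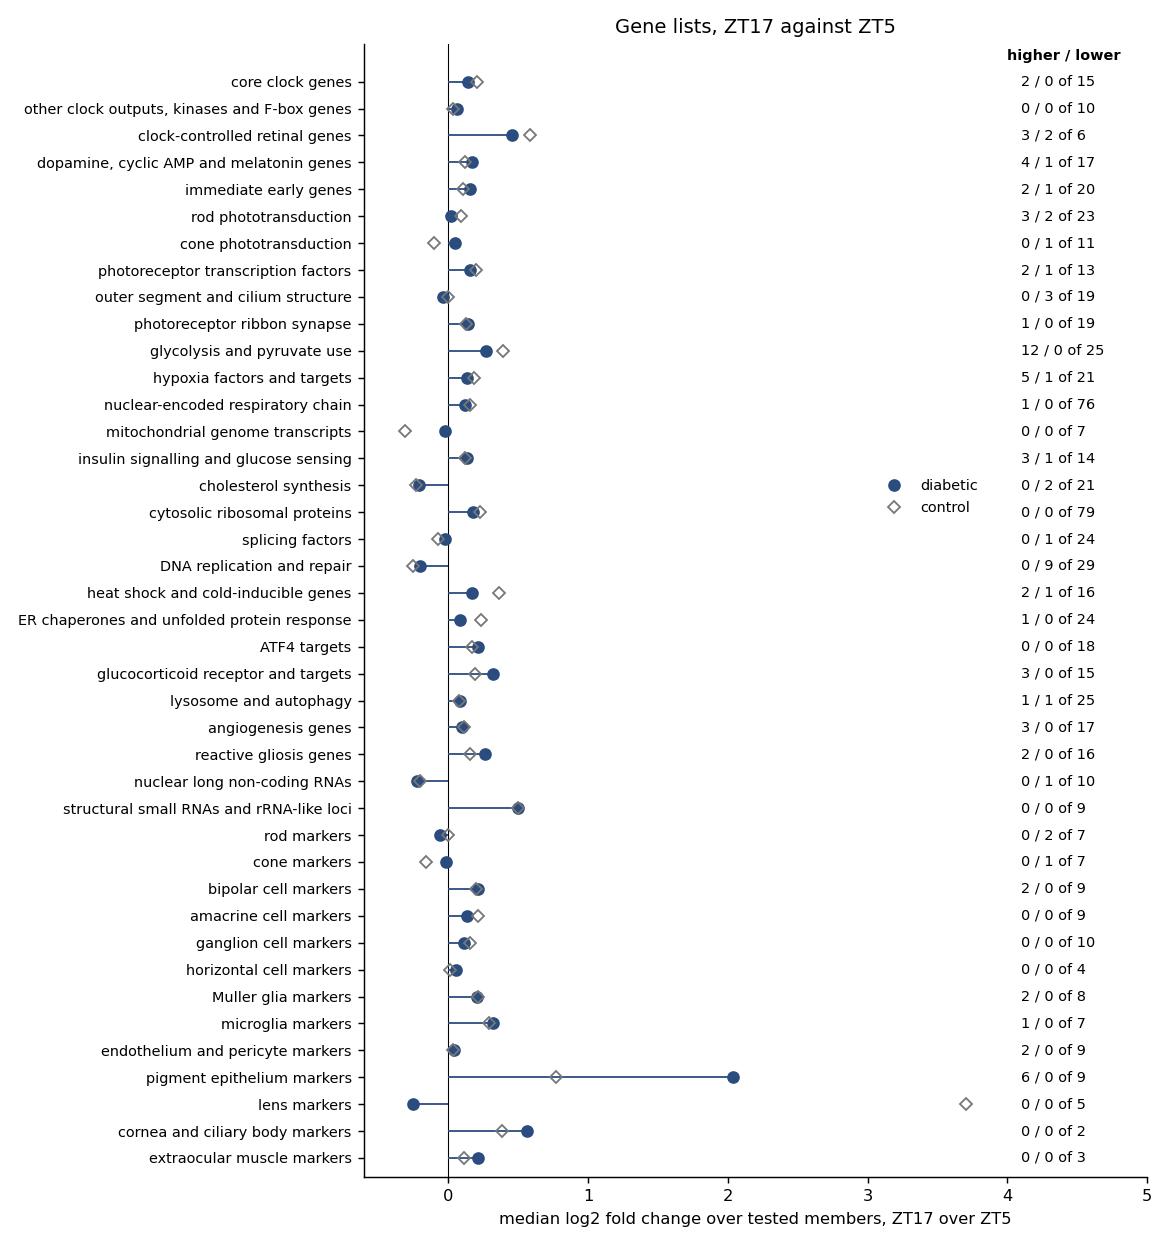
Median log2 fold change, ZT17 over ZT5, over the tested members of each gene list in diabetic (filled) and control (open) retinas, with the number of members higher and lower of those tested in diabetic retinas at the right. Glycolysis has 12 higher and 0 lower of 25, DNA replication and repair 0 and 9 of 29, and pigment epithelium markers the highest diabetic median at 2.04. The highest control median is that of the lens markers, 3.70, which rests on control ZT17 replicate 5. No blood marker was tested, and that list is not drawn.

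The 4 other time points of the diabetic series place the day and night values in the daily course. Over ZT1, ZT5, ZT9, ZT13, ZT17 and ZT21 in that order, Irf7 averaged 19.4, 11.4, 13.02, 35.2, 58.8 and 48.9 CPM, and Hk2 averaged 602, 451, 609, 933, 958 and 907 CPM. Irf7 was lowest at ZT5 and highest at ZT17, while Hk2 had similar means at the 3 night points. Drd4 averaged 161, 134, 154, 292, 296 and 282 CPM and Rorb 692, 540.2, 644, 893, 972 and 924 CPM, each with its lowest mean at ZT5 and its highest at ZT17. Nr2e3 averaged 539.8, 501, 419, 356, 334 and 446 CPM, with its highest mean at ZT1. Sag averaged 2521, 3000.3, 3284, 2785, 2239 and 2271 CPM, with its highest mean at ZT9. Mcm3 averaged 2.20, 2.47, 2.32, 2.87, 0.883 and 1.22 CPM, with no lower mean at ZT13 than at the day points. Rpe65 averaged 7.22, 3.73, 23.5, 25.3, 19.1 and 34.4 CPM, with its lowest mean at ZT5 and its highest at ZT21. These are means of 4 or 5 libraries and were not tested.

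**Figure D5:**
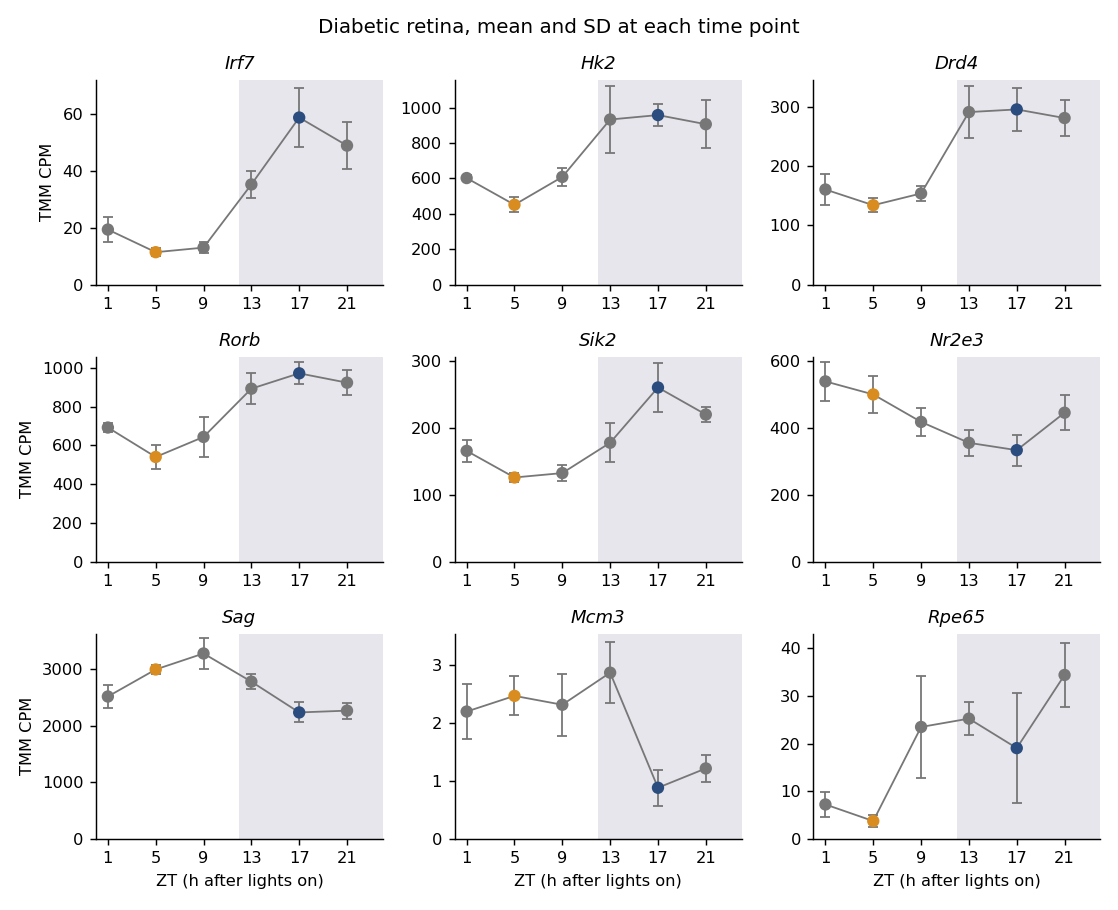
Mean and SD, in CPM (TMM-scaled) on axes that start at 0, of 9 genes in diabetic retinas at the 6 time points (4 or 5 libraries each), with ZT5 orange, ZT17 blue and the dark phase shaded. Irf7, Hk2, Drd4, Rorb and Sik2 have their lowest mean at ZT5, and Sag and Mcm3 have lower means at ZT17 and ZT21 than at the other points.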

How the data were processed

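The authors isolated total RNA from each retina with a column kit, removed ribosomal RNA (KAPA RNA HyperPrep with RiboErase) and sequenced paired ends on a NovaSeq. By the paper's methods and the submitters' processing notes, reads were aligned with STAR 2.7.4a to GRCm38.p5 and counted per gene with HTSeq 0.11.1 on Gencode M15, and DESeq2 1.26.0 was used downstream. The strand setting of the counting is not given in the sources used here. The authors deposited raw counts, 1 whole number per gene and library, which were used as deposited. Reads of genes with near-identical copies, such as the pseudogene copies of Pgk1 and Aldoa, may be split or lost in such counting.

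Counts were analysed with edgeR 4.0.16 in R 4.3.3 (TMM scaling, quasi-likelihood test). All 58 libraries entered 1 fit with a level for each of the 12 groups of genotype and time, which then shared 1 estimate of spread. Genes with a median of more than 4 DESeq2-normalized counts over the 58 libraries were tested, and an adjusted p under 0.05 (Benjamini-Hochberg) was a call. CPM values are counts scaled by the TMM library sizes (edgeR's cpm), with the mean and SD over libraries. No 2 libraries of a group agreed within sampling noise. Total counts of 8588878 to 20301393 set the precision, and genes of a few CPM rest on few counts. The study calls its samples biological replicates. Where retinas shared a mouse, p-values would measure partly technical spread.

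Genes were named by a rule. It took the 10 with the smallest adjusted p in each direction, the 5 largest and 5 smallest log2 changes among calls with a mean of at least 5 CPM, the core clock and clock-controlled genes, up to 4 members of each gene list with the smallest p in each direction, and the 10 with the smallest p in the test of the genotypes. Predicted genes without a name were not named in the first, second and last of these. Some genes that this rule takes are counted in their lists but not reported here by name. The members and the gene lists were chosen with earlier results of these data known. Alternatives were DESeq2 1.42.0, limma 3.58.1 (voom with quality weights), DESeq2 size factors, 2 other filters, thinning to the smallest library, a GC and length offset, the 9 libraries alone, a replicate block, a minimum fold and each replicate left out. The scripts were tested on simulated data. Gene positions and overlaps came from Gencode M21 by symbol, and promoters, the 250 bases before the start, from RefSeq (GRCm38.p6).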

Additional observations from a re-analysis of the deposited data

Results flagged for a closer look

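In 25 of 264 groups of libraries, the 5 day and the 4 night libraries of each of 132 genes, 1 library stood apart from the rest by Dixon's criterion. Chance alone sets 1 library apart in about 1 in 20 groups. ZT5 replicate 4 was the high library in 9 of the 25, with 1866 CPM for Aldoa, 1157 CPM for Crx, 108 CPM for Egln1, 293 CPM for Epas1, 148 CPM for Klf9, 89.2 CPM for Mxi1, 298 CPM for Nr1d1, 724 CPM for Plekhb1 and 230.5 CPM for Slc2a1. ZT5 replicate 5 was high for Pfkp at 851 CPM and Tuft1 at 12.4 CPM, and ZT5 replicate 1 was low for Dip2b at 107 CPM.

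ZT17 replicate 3 was the high library for Egr1 at 436 CPM, Ier2 at 42.4 CPM, Nr4a1 at 109 CPM, Eno2 at 624 CPM and Vwf at 16.9 CPM, and the low library for Ift88 at 18.3 CPM and Rora at 434 CPM. ZT17 replicate 4 was high for Crx at 1167 CPM, Emp1 at 3.78 CPM and mt-Rnr1 at 572 CPM. ZT17 replicate 5 was high for Fkbp5 at 42.6 CPM, Hsp90aa1 at 1101 CPM and Tbl1x at 152.6 CPM. For Dip2b, Mxi1, Plekhb1, Slc2a1, Egln1 and Tuft1 all night values lay above all day values.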

How the results depend on the processing

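No named gene that was called changed direction under any alternative. Of those not called, Arntl, Asrgl1, Cry2, Npas2, Nr1d2, Per3, Sdf2l1 and Zfat, all within 0.10 of 0 on the log2 scale, changed sign under at least 1, and Egr1 went from 1.79 to -0.62 with limma-voom and -0.96 without ZT17 replicate 3. Of the 1407 calls (694 higher, 713 lower), the minimum fold left 923 in all and 432 higher. The 9 libraries fitted alone, with the spread taken from those 9, gave 459 (277 and 182). Limma-voom gave 2283 (1138 and 1145). The GC and length offset gave 1099 lower genes, the thinned counts 462 and no filter on low counts 419. With each of the 9 libraries left out in turn the total ran from 882 to 1738, the higher genes from 449 to 892 and the lower from 425 to 857. The titles do not say whether libraries of the same replicate number belong together. The deviations of same-numbered ZT5 and ZT17 libraries correlated at 0.18, -0.10, -0.22 and 0.20. Of these 4 ZT5 libraries, 1 correlated best with its own number. So few correlations cannot decide whether the numbers pair the libraries. With the replicate number as a block, on the 9 libraries, 118 genes were called (90 and 28), and with the block and the GC and length offset 603 (353 and 250). For the difference between genotypes, 0 genes, DESeq2 gave 1 and limma-voom 4, and leaving out 1 library gave 0 to 1. The 2884 control calls were 1759 at the minimum fold and ran from 1373 to 3718 without 1 library. The causes of these shifts were not tested. Of 111 named genes called, 72 stayed called with any 1 library left out and 39 did not. The block lost 68, the 9 libraries alone 40, the block with the offset 35, no filter 22, thinning 17, limma-voom 4 and the offset 3. The median log2 change of all genes stayed between -0.015 and -0.0071 under the other scalings. Depth limits the values of genes of a few CPM, such as Mcm3.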

Other observations

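Other genes of the interferon response were looked up after the value of Irf7 was seen. Irf7 rose by 2.37 on the log2 scale. Among the other interferon regulatory factors, Irf1 at -0.15, Irf2 at 0.17, Irf3 at 0.17, Irf5 at -0.27, Irf8 at 0.33 and Irf9 at 0.02 were not called. The signal transducer Stat2 at 0.04 and the interferon-induced genes Isg15 at 0.44, Ifit1 at -0.41, Ifit2 at 0.29, Ifit3 at 0.18, Oasl2 at 0.22, Bst2 at 0.42, Rsad2 at -0.26, Usp18 at 0.13, Mx2 at -0.66, Ifih1 at 0.08, Ddx58 at 0.08 and Ifitm3 at 0.19 were not called either. The smallest edgeR adjusted p among them was 0.142, that of Ifit2. Phrf1, which overlaps Irf7, had a log2 change of 0.02 (SE 0.07). Of the salt-inducible kinases, Sik3 also rose, by 0.42 (SE 0.12, edgeR adjusted p = 0.0154), and Sik1 at 0.10 was not called.

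Other genes of the eye's epithelia were chosen after their values were seen. Ptgds, prostaglandin D synthase, measured 24.7, 22.8, 24.7, 20.6 and 24.96 CPM at ZT5 and 100.4, 57.5, 63.03 and 92.6 CPM at ZT17 and rose 3.33-fold (edgeR adjusted p = 0.0002). Car12, a carbonic anhydrase, measured 1.32, 1.75, 1.247, 1.40 and 0.936 CPM at ZT5 and 5.71, 2.48, 4.29 and 8.72 CPM at ZT17, a rise of 3.94-fold (edgeR adjusted p = 2.98e-05). Mfrp, a receptor-like protein of the pigment epithelium, measured 2.51, 2.26, 2.49, 2.75 and 3.24 CPM at ZT5 and 11.2, 10.4, 6.84 and 11.01 CPM at ZT17, a rise of 3.70-fold (edgeR adjusted p = 0.000426). Col8a1, a collagen chain, measured 4.16, 4.64, 6.46, 3.76 and 3.37 CPM at ZT5 and 13.03, 5.12, 8.43 and 13.2 CPM at ZT17, a rise of 2.28-fold (edgeR adjusted p = 0.00271). Night replicates 1 and 5 were the highest for Ptgds, Car12 and Col8a1, as for the summed pigment epithelium markers, and replicate 3 stood between them and replicate 4 for Mfrp.

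ZT5 replicate 4 and ZT17 replicate 3 deviated from their groups together. Their deviations correlated at 0.42 across the genes tested, which are not independent replicates, the highest of the 20 pairs of a day and a night library. These libraries also had the highest correlation of deviation with GC content, at 0.48 and 0.77. Their part in the calls was not tested beyond the values without each library and with the GC and length offset.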
